A study of Mus musculus with 40 samples.

Results

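The comparison described here set germ-free male C57BL/6 mice fed a Western diet against those fed a control diet, both given vehicle only, and asked what the diet changed in the liver. It used 10 of the 20 mice of the series, 5 a group, chosen by the diet and treatment in their titles. Germ-free mice carry no gut microbes, and the C57BL/6 strain is a common inbred strain that gains weight and stores liver fat on rich diets. All 10 were male by the series' design, were 64 days old, and had been dosed for 6 weeks. The other 10 mice had the same strain, age and diets, and received delta-valerobetaine (VB), which gut microbes can produce, in place of vehicle. They entered the shared estimate of the spread and served as a second test of the same diets. Liver RNA had been sequenced after flash freezing, and each mouse had 2 lane files of 1 library, which were summed.

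As background, a Western diet is rich in fat, sugar and usually cholesterol, although the labels do not give its composition. Liver cells sense sterols in the endoplasmic reticulum: when sterol is scarce, SCAP carries the factor SREBP2 to the Golgi, where it is cut free and turns on the genes of cholesterol synthesis and uptake, and when sterol is plentiful that transport stops. Oxysterols activate the nuclear receptor LXR, which turns on sterol export, and fatty acids activate PPARA, which turns on their oxidation in mitochondria and peroxisomes. Much of liver metabolism also follows the circadian clock, a loop in which ARNTL with CLOCK or NPAS2 drives its own repressors.

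Summed counts ran from 18126657 to 21308298 in the control diet mice and from 16315342 to 22226536 in the Western diet mice. Of 12616 genes tested, 2083 (16.5%) changed with diet at an adjusted p under 0.05 in edgeR's quasi-likelihood test, 1125 (8.92%) higher on the Western diet and 958 (7.59%) lower. The median log2 change of all tested genes was 0.0185. For 1542 genes (12.2%) the values of the diet groups did not overlap, and 450 of the called genes changed by at least 2-fold. The first principal component of the 10 mice held 34.7% of their variance and separated the diets, from -32.5 to -23.7 in control diet mice and from 19 to 53.5 in Western diet mice. Western diet mouse 4 stood apart from its group. It had the highest share of mitochondrially encoded counts, 4.62% against 2.34% to 2.68% in the other 4, and a second component of 49.2 against -37.9 to -7.48. Without it 2411 genes were called, of which 1820 were among the 2083. Below, mice are always listed in the order 1 to 5, values are CPM (read counts scaled to a library of standard size), and changes are log2, Western minus control diet, with their SE.

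**Figure D1:**
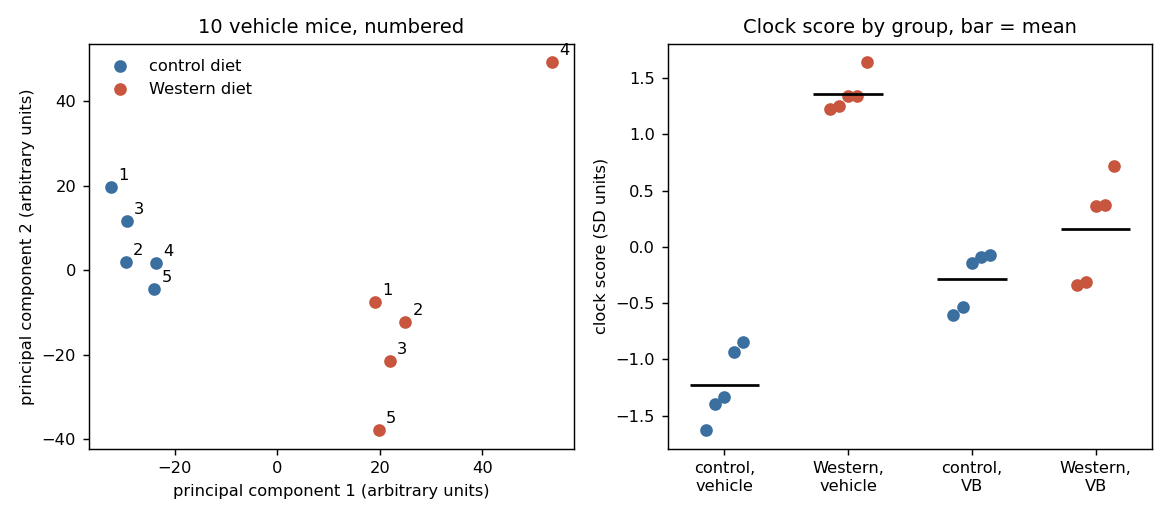
Left, the first 2 principal components (arbitrary units) of log2 CPM in the 10 vehicle mice, 1 point a mouse. Right, the clock score (units of SD) of each mouse in the 4 groups, with a bar at the group mean. The first component separates the diets, mouse 4 of the Western diet group lies apart at 53.5 and 49.2, and the clock scores of the vehicle groups lie at opposite ends.

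Genes of the circadian clock differed between the diet groups, and this bears on every other result. A score of the clock was taken as the leading principal component of 26 clock genes over the 20 mice (54.7% of their variance). This clock score ran from -1.63 to -0.847 in control diet mice and from 1.22 to 1.64 in Western diet mice. The labels give no time of collection, and the names of the libraries take a different form in each diet, so a difference of collection time or handling and the diet cannot be told apart. With the score added to the model 27 genes were called in place of 2083, and 25 of them were among the 2083. The sign was kept by 1693 of the 2083 (81.3%). Over the 2083 genes the median size of the change was 0.60 without the score and 0.447 with it, and the median SE was 0.137 and 0.449. Because the score did not overlap between the diets in vehicle mice, this model can hardly separate the score from diet. In every list below whose median turned sign with the score, no member was called in that model. Of those 27 genes, 19 belong to the 3 lists of sterol synthesis, sensing and uptake described next.

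Genes of cholesterol synthesis fell almost without exception. All 11 tested genes of the path from acetyl-CoA to lanosterol were lower on the Western diet, with a median change of -2.78, and so were 8 of the 9 from lanosterol to cholesterol, with a median of -2.30. In all 19 of these genes the groups did not overlap, against 12.2% of all tested genes, and the counts were the same when any 1 mouse was left out. The medians were -4.05 and -2.68 once the clock score was in the model.

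Sqle, which encodes squalene epoxidase, the enzyme that adds oxygen to squalene (chr15:59315077-59331192, plus strand, GRCm38), had the largest fall of the genes described here. It stood at 88.2, 114, 93.1, 115 and 78 CPM in the control diet mice and at 1.28, 1.74, 1.19, 0.715 and 0.549 CPM in the Western diet mice. Each Western diet mouse thus lay far below each control diet mouse, a fitted 86.6-fold difference (change -6.44 ± 0.29, adjusted p = 2.35e-12). Idi1, the isomerase that makes the second of the pair of isoprene building blocks (chr13:8885501-8892451, plus strand), read 266, 253, 238, 367 and 259 CPM on the control diet and 10.2, 14.7, 13.6, 8.66 and 13.2 CPM on the Western diet. Its change was -4.52 ± 0.16 (adjusted p = 8.03e-15). Cyp51, the lanosterol demethylase, fell from between 175 and 255 CPM to between 10.2 and 17.3 CPM (change -3.81 ± 0.15, adjusted p = 6.38e-14).

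Hmgcs1, an early synthase of the path, changed by -2.84 ± 0.24, from 420.5 ± 74 CPM to 58.8 ± 16 (SD, n = 5). The mevalonate kinase Mvk changed by -2.78 ± 0.18, the decarboxylase Mvd by -3.59 ± 0.25, farnesyl diphosphate synthase Fdps by -3.59 ± 0.23 and squalene synthase Fdft1 by -2.68 ± 0.17. After lanosterol, the reductase Tm7sf2 changed by -2.30 ± 0.10, the methyl oxidase Msmo1 by -2.96 ± 0.17, Nsdhl by -2.81 ± 0.16 and Dhcr7, the last enzyme of one branch, by -2.65 ± 0.16.

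**Figure D2:**
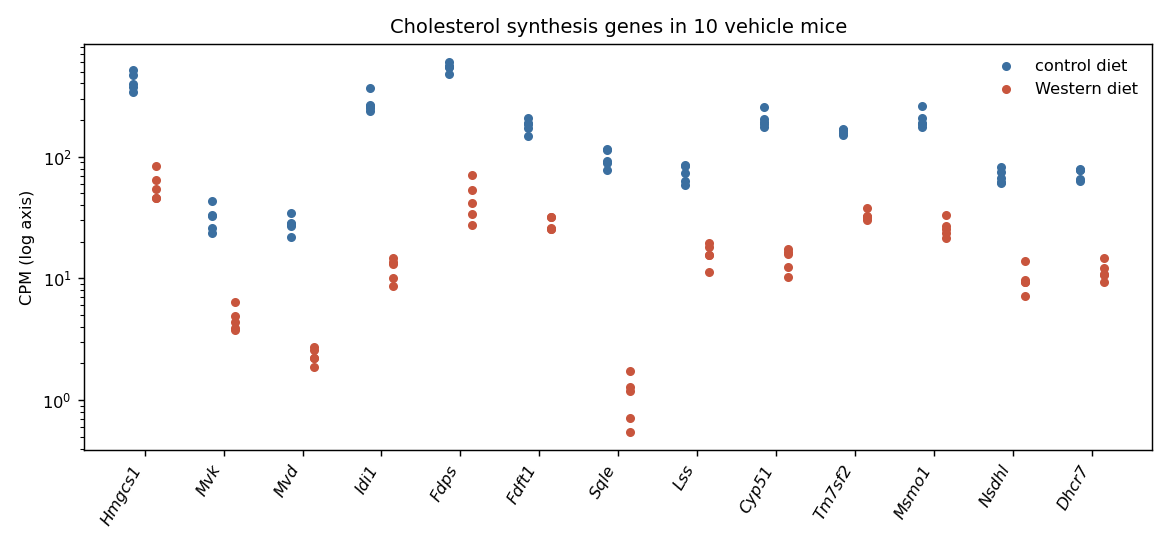
CPM (log axis) of 13 genes of cholesterol synthesis described in the text, in pathway order, 1 point a mouse, for the 5 control diet and 5 Western diet vehicle mice. The groups lie apart for all 13 genes, and the gap is widest at Sqle.

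The promoters of these genes are shown because their transcripts moved together. RefSeq start sites on GRCm38.p6 were matched for 15 of the 20 genes, in windows from 250 bases before to 50 bases after the start. The CCAAT box (CCAAT, on either strand), a common promoter element, was found in 13 of the 15 (86.7%), against 38.9% of the promoters of all 9448 tested genes with a window. Other lists held it often too: 5 of 7 promoters of sterol sensing (71.4%), 15 of 22 of the clock (68.2%), 7 of 13 of peroxisomal oxidation (53.8%) and 7 of 17 of chaperones (41.2%). The sterol element searched (TCACNCCAC, on either strand) was found in 1 of the 15, Hmgcs1, and in 1.09% of all. Capitals mark the motif in these stretches, read 5′ to 3′ along the gene, and a CCAAT box on the opposite strand reads ATTGG.
Hmgcs1, sterol element, chr13:119690204-119690232, plus strand: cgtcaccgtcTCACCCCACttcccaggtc
Idi1, CCAAT box, chr13:8885551-8885575, plus strand: cctccagctgATTGGcgagcccggg
Cyp51, CCAAT box, chr5:4104712-4104736, minus strand: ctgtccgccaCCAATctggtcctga
Msmo1, CCAAT box, chr8:64733619-64733643, minus strand: gtggggcggaCCAATtacgacaggc
Lss, CCAAT box, chr10:76531533-76531557, plus strand: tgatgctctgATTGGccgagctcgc
These are matches of letters, and no binding was measured.

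Genes of sterol sensing moved in both directions. Of 13 tested genes of sterol sensing and LDL uptake 6 fell and 2 rose (median -0.31). Insig1, which holds SCAP in the endoplasmic reticulum and is itself switched on by SREBP2, went from 248, 248, 129, 193 and 166 CPM to 65, 67.3, 55.8, 24 and 40.9 CPM. The groups did not overlap (change -1.96 ± 0.25, adjusted p = 1.25e-05). Srebf2, which encodes SREBP2, changed by -1.12 ± 0.12, and the sterol carrier Stard4 by -1.33 ± 0.16. Npc1, which moves cholesterol out of lysosomes, rose by 0.52 ± 0.12.

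Part of the sterol export list rose. Abcg5 and Abcg8, which form the pump that sends sterol into bile, changed by 1.83 ± 0.17 and 1.48 ± 0.17. Abcg5 read 28.9, 37.7, 33, 35.2 and 32.7 CPM on the control diet and 153, 115, 133, 78 and 117 CPM on the Western diet, with no overlap. Of 13 tested genes of sterol export and LXR targets, 6 rose and 2 fell (median 0.26). The number that rose was at most 5 whichever vehicle mouse was left out, and 3 without control diet mouse 3, control diet mouse 4 or Western diet mouse 5. The cholesterol efflux pump Abca1 rose by 0.51 ± 0.12, and Pltp, the phospholipid transfer protein, fell from between 44.5 and 151 CPM to between 14.7 and 35.7 CPM (change -1.54 ± 0.37, adjusted p = 0.00741). 

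In bile acid synthesis the enzymes moved in both directions. Cyp7a1, the rate-limiting enzyme of the classic path, stood at 21.1, 23.4, 25.6, 23.4 and 37.1 CPM and 56.1, 55.5, 70.3, 43.6 and 111 CPM, just without overlap (change 1.37 ± 0.43, adjusted p = 0.0354). Cyp8b1, which sets the share of cholic acid, changed by -0.53 ± 0.15 and Cyp27a1, which starts the alternative path, by -0.54 ± 0.08, both lower. Of 17 tested genes of the list 4 rose and 3 fell, and of 12 transporters of bile acids and the canalicular membrane 2 rose and 2 fell. Abcb11, the bile salt export pump, fell from 263 ± 38.3 CPM to 162 ± 39.4 (SD, n = 5, change -0.70 ± 0.14), and the uptake carrier Slco1a1 changed by -0.75 ± 0.12.

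Fatty acid synthesis was lower in part. Of 17 tested lipogenic genes 6 fell and none rose (median -0.45), with 1 rising without control diet mouse 2. Fasn, the fatty acid synthase, read 244, 606, 534, 211 and 209 CPM on the control diet and 65.4, 144, 99.6, 63.6 and 102 CPM on the Western diet. The highest Western diet mouse lay below the lowest control diet mouse (change -1.92 ± 0.44, adjusted p = 0.00514). Acss2, which makes acetyl-CoA from acetate, changed by -2.46 ± 0.23, Acly, which makes it from citrate, by -1.91 ± 0.39, and the desaturase Fads1 by -1.23 ± 0.21. Scd1, the desaturase that makes oleic acid, and Srebf1, which encodes the lipogenic factor SREBP1, did not pass the test, at 0.74 ± 0.37 (adjusted p = 0.202) and 0.66 ± 0.35 (adjusted p = 0.235).

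Many genes of the lipid droplet rose. Of 14 tested, 8 rose and none fell, with a median change of 0.69, and 7 rose without Western diet mouse 4. Cidec, which fuses droplets into larger ones (chr6:113424634-113435760, minus strand), stood at 1.24, 1.58, 2.79, 1.67 and 3.11 CPM in control diet mice. In Western diet mice it stood at 35.1, 74.6, 51.2, 159.9 and 50.1 CPM, so that every one of them was above every control, while they varied widely among themselves (change 5.16 ± 0.49, adjusted p = 9.29e-07). Its relative Cidea was near 0 on the control diet, at 0.0517, 0.263, 0.698, 0 and 0.264 CPM, and read 2.11, 11, 5.95, 47 and 2.20 CPM on the Western diet, highest in mouse 4. The droplet coat genes Plin2 and Plin4 changed by 0.54 ± 0.12 and 2.26 ± 0.36, and G0s2, an inhibitor of the lipase ATGL, by 2.03 ± 0.43.

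Lipases moved in both directions. Lipe, the hormone-sensitive lipase, read 7.80, 7.20, 7.74, 5.79 and 7.43 CPM on the control diet and 18.1, 22.5, 26.6, 29.1 and 29 CPM on the Western diet (change 1.80 ± 0.14, adjusted p = 6.01e-09). Pnpla2, which encodes ATGL, and Mgll, which cleaves the last fatty acid, changed by 0.83 ± 0.11 and 1.11 ± 0.18, whereas the carboxylesterase Ces1d changed by -0.72 ± 0.12. In all, 4 of the 12 tested lipases and cofactors rose and 3 fell. Among 13 genes of triglyceride synthesis 5 rose and 1 fell (none without control diet mouse 2, 3 or 5 or Western diet mouse 1, 2, 3 or 4), led by Agpat9 (also called Gpat3, an acyltransferase of the first step) at 2.41 ± 0.34 and Mogat1, which acylates monoglyceride, at 1.97 ± 0.36.

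Of 18 tested genes of fatty acid uptake and binding 8 rose and 5 fell. Cd36, the fatty acid receptor, went from 12.4, 55.5, 33.3, 51.5 and 44.3 CPM to 101, 158, 120.5, 158 and 143 CPM (change 1.79 ± 0.32, adjusted p = 6.22e-04), and Pparg, the adipogenic nuclear receptor, from between 4.65 and 5.46 CPM to between 11.3 and 25 CPM (change 1.79 ± 0.23). The transporter Slc27a2 rose by 0.79 ± 0.11 and the intestinal binding protein gene Fabp2 by 1.42 ± 0.19, while the acyl-CoA synthetase Acsl3 fell, at -1.54 ± 0.22. Among 16 apolipoproteins and assembly factors 4 rose and 1 fell, or 2 fell without Western diet mouse 4. Apoa4, carried on chylomicrons and VLDL, read 97, 166, 76.8, 97 and 72.5 CPM and 474, 849, 729, 1556 and 1032 CPM (change 3.19 ± 0.36), Apoc2, the cofactor of lipoprotein lipase, changed by 1.37 ± 0.16, and Apom, carried on HDL, by -0.93 ± 0.12.

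**Figure D3:**
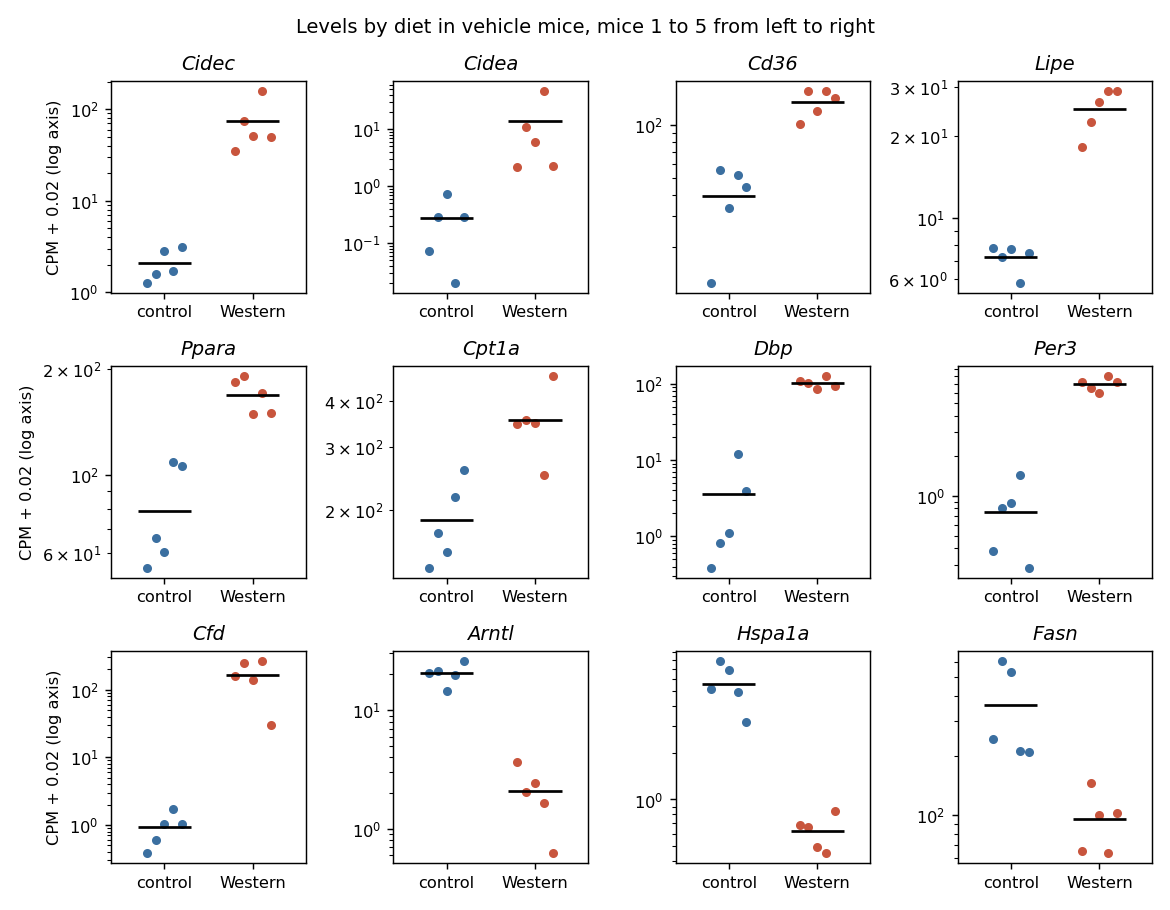
CPM (log axis, with 0.02 added so that 0 can be drawn) of 12 genes in each of the 10 vehicle mice, 1 point a mouse and a bar at the group mean. Droplet, oxidation and clock output genes lie higher in Western diet mice, Arntl, Hspa1a and Fasn lie lower, and Cidea is highest in mouse 4.

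Fatty acid oxidation rose by small steps in many genes. Of 20 tested genes of mitochondrial oxidation 12 rose and none fell (median 0.31), and of 19 of peroxisomal oxidation 12 rose and none fell (median 0.41). The first count was 6 without control diet mouse 1 or 3, 7 without Western diet mouse 2, and 10 without Western diet mouse 4, and the second was 13 without mouse 4. Cpt1a, the gate of mitochondrial entry, read 139, 173, 153, 218 and 258 CPM on the control diet and 346, 356, 349, 249.8 and 470.3 CPM on the Western diet, with overlapping groups (change 0.91 ± 0.15, adjusted p = 1.84e-04). The short-chain dehydrogenase Acads changed by 0.41 ± 0.066, the carnitine shuttle Slc25a20 by 0.61 ± 0.12 and Hadh by 0.54 ± 0.11. In the model with the clock score the medians of the lists were 0.105 and 0.0454, and no member of either was called.

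In peroxisomes, the thiolases Acaa1a and Acaa1b changed by 0.57 ± 0.11 and 0.77 ± 0.15. The larger rises were among thioesterases, which free fatty acids from coenzyme A: Acot3 went from between 1.03 and 4.62 CPM to between 15.6 and 59.2 CPM (change 3.50 ± 0.71, adjusted p = 0.00216) and Acot11 from between 2.40 and 5.15 CPM to between 15.3 and 30.2 CPM (change 2.64 ± 0.22). Vnn1, which breaks down the coenzyme A precursor pantetheine, changed by 2.08 ± 0.36. Of 11 ketone and fuel switch genes 7 rose and 2 fell, or 1 fell without any 1 mouse other than control diet mouse 5 and Western diet mouse 4. Ppara itself changed by 1.09 ± 0.16, from 54.3, 66.3, 60.2, 109 and 106 CPM to 183, 192, 149, 171 and 149.9 CPM with no overlap. Cyp4a14, a fatty acid omega-hydroxylase, stood at between 28.9 and 361 CPM and between 180.3 and 570.1 CPM (change 0.59 ± 0.80, adjusted p = 0.697). Pdk4, a fasting-induced brake on glucose oxidation, was not called (-0.23 ± 0.39, adjusted p = 0.754). Of 11 carnitine genes 5 rose, with the carnitine transporter Slc22a5 at 1.08 ± 0.23 and Bbox1, which completes carnitine synthesis, at 0.34 ± 0.086.

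**Figure D4:**
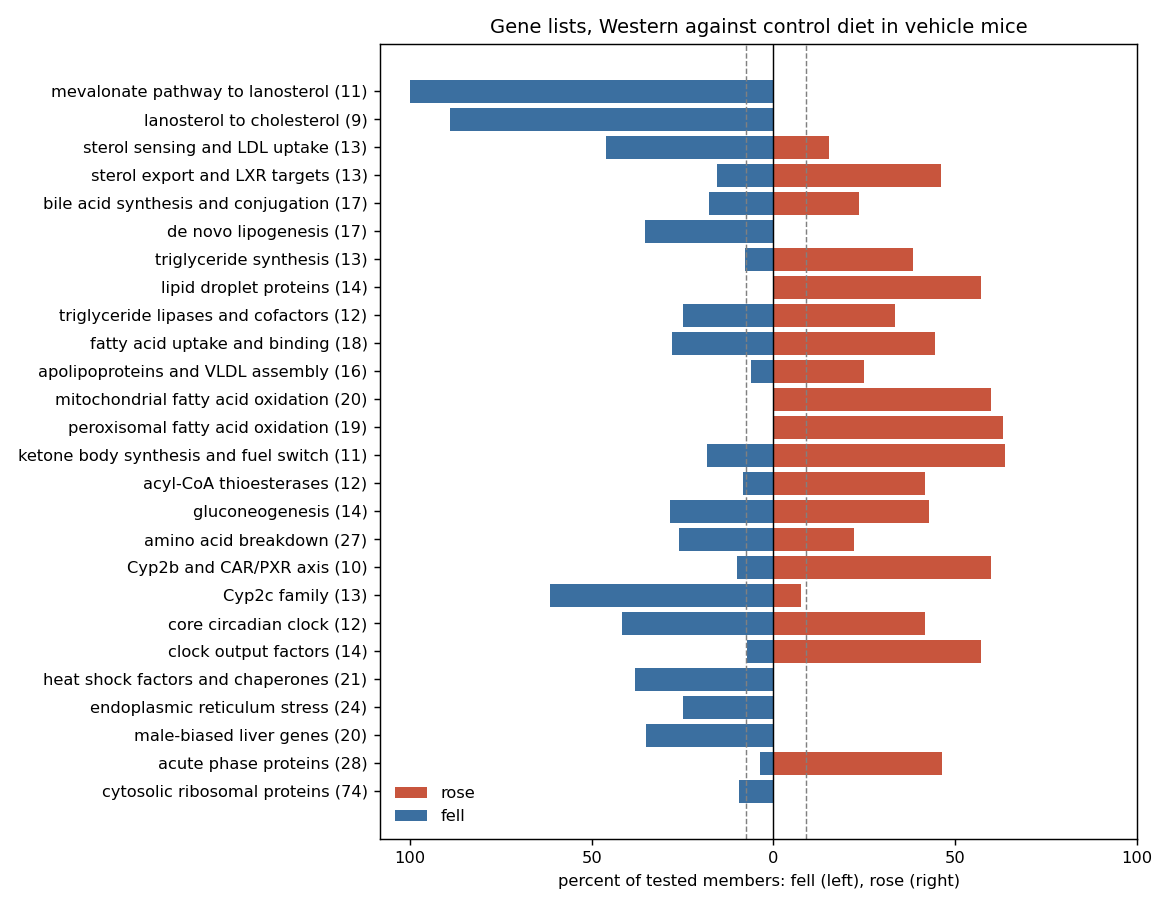
Share (percent) of the tested members of 26 gene lists that rose (right) or fell (left) with the Western diet in vehicle mice at an adjusted p under 0.05, with the number tested beside each name. Dashed lines mark the shares over all tested genes, 8.92% and 7.59%; sterol synthesis lies far to the left, and droplet and oxidation lists lie to the right.

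Genes of glucose and amino acid metabolism moved in both directions. G6pc, the last enzyme of glucose release, fell from between 255 and 1220.3 CPM to between 125 and 216 CPM (change -1.80 ± 0.43, adjusted p = 0.00754) and Pck1, the entry enzyme of gluconeogenesis, changed by -0.63 ± 0.17. Of 14 gluconeogenic genes 6 rose and 4 fell, with 2 rising without Western diet mouse 2. In glycogen metabolism the synthase Gys2 rose by 0.94 ± 0.12, while the glycogen-targeting phosphatase subunits Ppp1r3b and Ppp1r3c fell, at -1.23 ± 0.13 and -1.48 ± 0.23. Tat, the tyrosine aminotransferase, went from 2282, 3476, 1727, 2226 and 2203 CPM to 686, 877, 535, 653 and 429.9 CPM (change -1.91 ± 0.26, adjusted p = 3.07e-05). Of 27 amino acid breakdown genes 6 rose and 7 fell, and of 17 genes of the methyl cycle 1 rose and 4 fell, with the glycine methyltransferase Gnmt at -0.69 ± 0.10. The number of methyl cycle genes that rose was 0 without control diet mouse 1, 2, 4 or 5 or Western diet mouse 3, and 2 without control diet mouse 3 or Western diet mouse 4. The number of amino acid genes that rose was 3 without control diet mouse 1 or 3 or Western diet mouse 2. The medians of the gluconeogenic, amino acid and methyl cycle lists turned from 0.24, 0.0265 and 0.0208 to -0.152, -0.324 and -0.349 with the clock score in the model.

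Drug-metabolizing enzymes changed family by family, and long shared stretches of sequence within Cyp2 and Cyp3 make the values of single members uncertain. Cyp1a2, the main target of the aryl hydrocarbon receptor in liver, went from 1023, 856, 1069, 1213 and 962 CPM to 308, 258, 305, 379.8 and 244 CPM (change -1.78 ± 0.13, adjusted p = 2.13e-09). In the Cyp2c family 8 of 13 fell and 1 rose, among them Cyp2c29 at -0.92 ± 0.15 and Cyp2c55 at -2.18 ± 0.22. Of 4 tested Cyp3a genes 3 rose, with Cyp3a11, the most abundant, from between 691 and 1036 CPM to between 1118 and 2507 CPM (change 1.15 ± 0.24). Cyp2b10, the classic target of the receptor CAR, fell, at -2.72 ± 0.47, whereas 6 other genes of that list of 10 rose, among them Por, the electron donor of all microsomal P450 enzymes, at 1.48 ± 0.17, and Cyp2a5 at 1.27 ± 0.19. Adding the clock score turned the medians from 0.948 to -0.0189 in the Cyp3a list and from 0.744 to -0.564 in the CAR list.

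The clock itself showed opposite arms. Of 12 tested core genes 5 rose and 5 fell, and of 14 output factors 8 rose and 1 fell, or 7 and 1 without Western diet mouse 4. These genes make up the clock score, so the score is no second measure of them. Arntl, the driver of the loop (chr7:113207465-113314126, plus strand), stood at 20.5, 21.5, 14.6, 19.9 and 25.9 CPM on the control diet and at 3.65, 2.04, 2.44, 1.65 and 0.604 CPM on the Western diet. Its partner Npas2 fell from between 3.39 and 9.50 CPM to between 0.11 and 0.416 CPM. Both groups were far apart for each (changes -3.27 ± 0.35 and -4.98 ± 0.48, adjusted p = 1.78e-06 and 1.92e-07).

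Dbp, an output factor driven by ARNTL (chr7:45705088-45710203, plus strand), moved the other way, from 0.362, 0.788, 1.07, 12 and 3.85 CPM to 108, 101, 86.2, 127 and 94.9 CPM (change 4.80 ± 0.68, adjusted p = 8.86e-05). The repressors Per3 and Per2 rose by 3.21 ± 0.33 and 1.58 ± 0.20, Cry1 fell, at -1.32 ± 0.17, and Nfil3, which competes with DBP for the same sites, fell, at -1.76 ± 0.16. The outputs Ciart, Wee1 and Usp2 rose by 3.73 ± 0.42, 3.35 ± 0.35 and 2.89 ± 0.33. Per1 and Nr1d1, both repressors of the loop, were not called, at 0.15 ± 0.15 (adjusted p = 0.568) and 0.21 ± 0.42 (adjusted p = 0.804).

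Promoters are shown for the clock because its genes moved in opposite directions. The E-box bound by ARNTL (CACGTG, the same on both strands) was found in 6 of 22 matched promoters (27.3%), against 10.3% of all, and the D-box bound by DBP and NFIL3 (TTATGNAA, either strand) in 3 of 22 (13.6%), against 2.19%. The E-box was present in genes that rose (Ciart and Tef), in one that fell (Cry1) and in genes that were not called, Per1 among them. The D-box was present in Per3, which rose, and also in Per1.
Ciart, E-box, chr3:95882329-95882354, minus strand: catctagagtCACGTGttgccggtaa
Tef, E-box, chr15:81802536-81802561, plus strand: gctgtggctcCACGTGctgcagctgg
Cry1, E-box, chr10:85185099-85185124, minus strand: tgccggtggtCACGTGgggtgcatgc
Per3, D-box, chr4:151044853-151044880, minus strand: gacccgcgcgTTATGTAAggtactcggg

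A set of chaperone genes fell. Of 21 tested heat shock factors and chaperones 8 fell and none rose, with a list median of -0.10. Hspa1a, an inducible HSP70, read 5.11, 7.83, 6.88, 4.93 and 3.16 CPM on the control diet and 0.66, 0.648, 0.476, 0.429 and 0.824 CPM on the Western diet (change -3.17 ± 0.39, adjusted p = 6.17e-06). Its near-identical copy Hspa1b went from between 53.7 and 69.8 CPM to between 6.07 and 20.5 CPM (change -2.45 ± 0.41), and reads that fit both copies make the split between them uncertain. The co-chaperones Dnajb1 and Bag3 and the constitutive Hspa8 changed by -0.96 ± 0.15, -0.72 ± 0.13 and -0.71 ± 0.13. Hsf1, the factor that drives them, and Hsp90ab1 were not called, at 0.04 ± 0.12 (adjusted p = 0.874) and -0.0068 ± 0.13 (adjusted p = 0.983).

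A pair of inverted heat shock units (GAANNTTC, which reads the same on the other strand) was found in 10 of 17 matched chaperone promoters (58.8%), against 5.64% of all. The copies Hspa1a and Hspa1b carry the same stretch, and Dnaja1, whose transcript was not called, carries the motif too.
Hspa1a, chr17:34972243-34972270, minus strand: gaaactgctgGAAGATTCctggccccaa
Hspa1b, chr17:34959325-34959352, minus strand: gaaactgctgGAAGATTCctggccccaa
Fkbp4, chr6:128438790-128438817, minus strand: cgcttctctaGAAAGTTCtccgctcccg
Dnaja1, chr4:40722334-40722361, plus strand: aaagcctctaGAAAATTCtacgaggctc
Of 24 endoplasmic reticulum stress genes 6 fell and none rose (1 rose without control diet mouse 5 or Western diet mouse 2), among them the stress factors Atf4 at -0.71 ± 0.13 and Ddit3 at -1.05 ± 0.29. The median of that list turned from -0.238 to 0.204 with the clock score in the model.

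Many acute phase genes rose. Of 28 tested acute phase genes 13 rose and 1 fell. None fell without control diet mouse 2, 3, 4 or 5 or Western diet mouse 3 or 5, and 2 fell without Western diet mouse 1 or 2. Lcn2, an iron-scavenging protein, went from 2.12, 4.57, 4.19, 5.84 and 3.59 CPM to 26.5, 71.5, 38.6, 44.5 and 24.7 CPM (change 3.33 ± 0.63, adjusted p = 0.00119) and Orm3, an alpha-1-acid glycoprotein, changed by 3.13 ± 0.38. Serum amyloid Saa1 went from between 26.6 and 48.6 CPM to between 151 and 453 CPM (change 2.68 ± 0.67, adjusted p = 0.0109), and Saa4 changed by 1.02 ± 0.17. The metallothionein Mt1, which binds zinc, changed by 2.85 ± 0.64, while Fga, a fibrinogen chain, fell, at -0.36 ± 0.12. Hamp, the iron hormone hepcidin, changed by -1.51 ± 0.44 (adjusted p = 0.0247). The median of the acute phase list turned from 0.439 to -0.502 with the clock score in the model.

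Cfd, which encodes adipsin, a complement protease made mainly by fat cells (chr10:79890853-79892655, plus strand), had the largest rise of the genes described here. It read 0.362, 0.578, 1.02, 1.67 and 1.00 CPM on the control diet and 158, 244, 137, 265 and 30.1 CPM on the Western diet (change 7.46 ± 0.76, adjusted p = 2.85e-06). Beside it, the defining fat cell markers Adipoq, Lep, Retn and Plin1 were too low to test, with no value above 0.572 CPM in any of the 10 mice, and Lep was 0 in all. Of the 7 tested fat cell genes 3 rose (Cfd, Cidec and Lipe) and 1 fell (Pck1). The whole list of 11 summed to 6973 to 8639 CPM on the control diet and 5521 to 10060 CPM on the Western diet, most of it Car3, a carbonic anhydrase that hepatocytes also make (4611 ± 479.6 and 4859 ± 1545 CPM, SD, n = 5). Fabp4, abundant in fat cells, was not called (0.77 ± 0.44, adjusted p = 0.268). Among hepatokines, 5 of 18 rose and 3 fell, with Inhbe, an activin subunit, at 2.27 ± 0.31 and Fgf21, a fasting and stress hormone, at 1.55 ± 0.35. The number that rose was 3 without control diet mouse 1 or 5 or Western diet mouse 2 or 4.

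Some sex-biased genes, which in liver follow the pattern of growth hormone release, changed with diet. Of 20 tested male-biased genes 7 fell and none rose (median -0.42), with Elovl3, an elongase, from 1647, 1125, 1206, 1072 and 1376 CPM to 259, 312, 319, 173 and 222 CPM (change -2.32 ± 0.23, adjusted p = 4.86e-07) and Hsd3b5, a steroid dehydrogenase, at -0.98 ± 0.22. Of 20 female-biased genes only 9 were high enough to test, and of these 4 rose and none fell. Cyp2a4 went from between 0.0517 and 0.263 CPM to between 0.659 and 2.58 CPM (change 3.43 ± 0.68). A gene so near 0 on the control diet passes the filter only through groups where it is higher, which favours rises in this count. Adding the clock score turned the medians from -0.42 to 0.549 in the male-biased list and from 0.0219 to -0.752 in the female-biased list. Igf1, the growth hormone effector, was not called (0.051 ± 0.11, adjusted p = 0.819). Of the 16 genes of its axis 1 rose and 2 fell (18.8% called, near the 16.5% of all tested genes). The number that rose was 0 without control diet mouse 1 or 2 or Western diet mouse 1, and 4 without control diet mouse 5, and the number that fell was 1 without control diet mouse 2 or Western diet mouse 5. Of 21 tested major urinary protein genes 2 rose and none fell (9.52% called, against 16.5% of all tested genes). Only 1 rose without control diet mouse 2, 3 or 4, and 1 rose and 2 fell without Western diet mouse 4. The median of that list went from 0.139 to 2.37 with the clock score in the model, and Mup8 was then called, at 5.92 ± 1.08 (adjusted p = 0.0235). Their summed share of counts was 11.1% ± 1.90 on the control diet and 11% ± 1.28 on the Western diet (SD, n = 5, exact permutation test, two-sided, p = 0.889, adjusted over 3 measures 0.889). The mitochondrially encoded share was 2.37% ± 0.218 and 2.97% ± 0.932 (exact permutation test, two-sided, p = 0.119, adjusted 0.357), where 0.00794 is the smallest p that 5 against 5 mice can give. The higher mean came largely with mouse 4 of the Western diet, since the difference was 0.60 percentage points with it and 0.187 without it.

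Among the lists, the count of ribosomal protein genes moved most when a single mouse was left out. Of 74 tested genes of the cytosolic ribosome 7 fell (9.46%) and none rose, with a median change of -0.24. That share is near the 7.59% of all tested genes that fell. Without Western diet mouse 4, 64 fell, with a median of -0.476, while 2 fell without control diet mouse 1 or Western diet mouse 3 or 5, and 4 without control diet mouse 3. With every mouse kept and the clock score in the model, the median was 0.0632. The 7 were led by Rpl3 (-0.68 ± 0.094, adjusted p = 2.01e-05), Rps9 (-0.41 ± 0.11) and Rpl8 (-0.37 ± 0.11). Rpl3 read 151, 113, 127, 127 and 108 CPM on the control diet and 84.1, 77.6, 77.4, 86.6 and 63.6 CPM on the Western diet, while Rps9 read 113, 99.9, 90.4, 124 and 79 CPM on the Western diet, with mouse 4 the highest. Of 34 proteasome genes 1 fell (2.94%), and 3 fell without mouse 4. The 58 nuclear genes of oxidative phosphorylation had a median change of 0.064, and 2 fell without mouse 4 and 1 rose without mouse 5 of the Western diet.

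In bulk liver RNA, fewer cells of a type and less RNA per cell cannot be told apart. Markers of hepatocytes were abundant, with a summed level of 73590 to 82680 CPM on the control diet and 67560 to 89970 CPM on the Western diet. Of these 11 markers 1 rose and 1 fell (18.2% called, near the 16.5% of all tested genes). Albumin (Alb) changed by -0.16 ± 0.14 (adjusted p = 0.491). Kupffer cell and macrophage markers summed to 291 to 379.7 CPM and 206.2 to 626.4 CPM, with 1 of 17 tested higher and 1 lower (11.8% called). Stellate cell markers summed to 310.2 to 461.6 CPM and 300.6 to 406.5 CPM, with 1 of 12 lower (8.33% called). Of 24 genes of extracellular matrix 1 rose and 1 fell (8.33% called). Neutrophil markers were close to 0, at 1.11 to 1.58 CPM and 1.495 to 3.65 CPM, with 1 of 3 tested higher. Ly6g was 0 in all mice but Western diet mouse 3 (0.0595 CPM). Of 8 tested MHC class II presentation genes 3 fell, H2-Aa (-0.71 ± 0.18), H2-Ab1 (-0.62 ± 0.18) and Cd74 (-0.55 ± 0.17), and 1 fell without control diet mouse 4. Of 16 markers of periportal hepatocytes 8 fell and 1 rose, and of 16 pericentral markers 4 rose and 2 fell, with Cyp2e1 at 0.64 ± 0.13 and Cdh1, the periportal cadherin, at -2.16 ± 0.37. Several counts in these lists moved when 1 mouse was left out. Of hepatocyte markers 2 rose without control diet mouse 3 and 3 fell without Western diet mouse 4. The Kupffer cell gene that rose was lost without control diet mouse 1, 2, 3 or 4 or Western diet mouse 1, 4 or 5, and the stellate cell gene that fell was lost without control diet mouse 2, 3 or 4 or Western diet mouse 1, 2 or 3. Of pericentral markers 1 fell without any 1 mouse other than control diet mouse 2 or 5 or Western diet mouse 3, and the periportal gene that rose was lost without any 1 mouse other than control diet mouse 2 or Western diet mouse 3 or 5. The part of cell composition in the changes of other genes was not tested.

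The same diets were compared in VB mice, and the difference of the diet effects was tested in the same fit. In VB mice 813 genes (6.44%) changed with diet, 407 (3.23%) higher and 406 (3.22%) lower. Of the 2083 genes called in vehicle mice, 321 were also called in VB mice (15.4% of the 2083 and 39.5% of the 813), 291 in the same direction and 30 in the opposite one. The difference itself passed the test for 964 genes (7.64%), with 506 (4.01%) higher and 458 (3.63%) lower in vehicle mice. Of the 2083 genes 691 (33.2%) differed in this way. The size of the change, whatever its sign, was smaller in VB mice for 667 of them and not smaller for 24. Its sign was opposite in VB mice for 478 of the 691. These genes were selected by a call in vehicle mice, which favours a larger change there in advance. The counts of 667 and 24 therefore do not show which treatment had the larger diet effect.

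The groups of genes parted in this comparison. All 11 genes of the path to lanosterol fell in VB mice as well, with a median of -1.84, and the fall was larger in vehicle mice for 7 of them by the test of the difference. Sqle fell from 79.7 ± 23.8 to 2.31 ± 0.813 CPM in VB mice (SD, n = 5), a change of -5.12 ± 0.26 against -6.44 ± 0.29 (difference -1.31 ± 0.38, adjusted p = 0.038). Abcg5 changed by 1.74 ± 0.17 in VB mice against 1.83 ± 0.17 (difference 0.10 ± 0.23, adjusted p = 0.873). Droplet and oxidation genes differed. In VB mice 1 droplet gene fell and the median was 0.13, and the difference passed for 5 of 14, with Cidec at 1.23 ± 0.44 (difference 3.93 ± 0.64, adjusted p = 0.00123). Mitochondrial oxidation had a median of -0.12 in VB mice, and the difference passed for 10 of 20, all with the higher change in vehicle mice. Cpt1a changed by -0.15 ± 0.15 in VB mice (difference 1.06 ± 0.21, adjusted p = 0.00349).

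**Figure D5:**
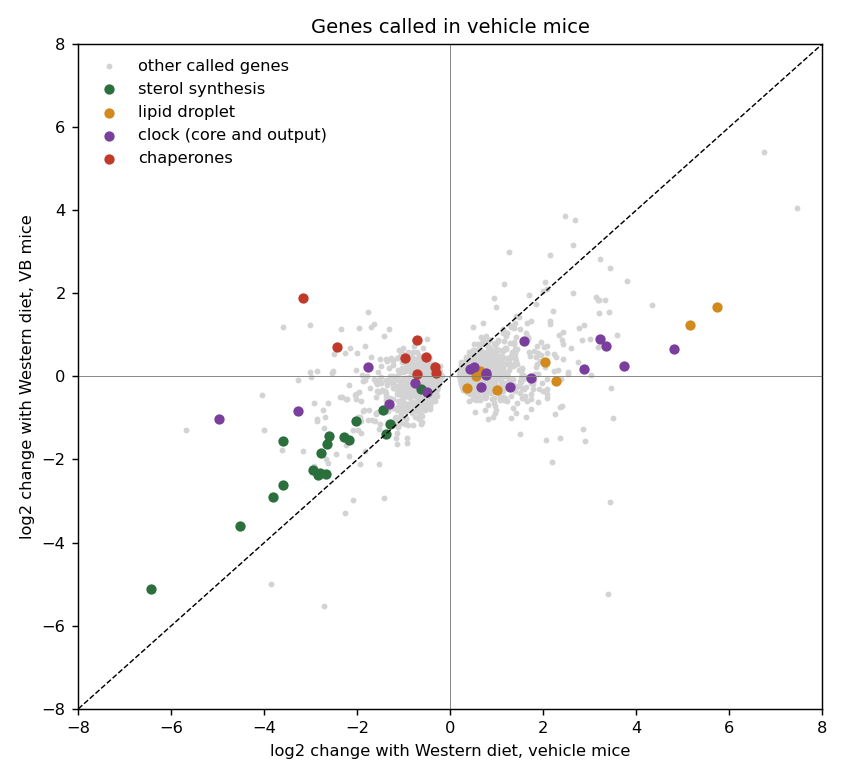
Log2 change with the Western diet in VB mice (vertical) against that in vehicle mice (horizontal) for the 2083 genes called in vehicle mice, 1 point a gene, with 4 gene groups coloured and the diagonal of equal change dashed. Sterol synthesis genes lie low on both axes, while clock, chaperone and droplet genes lie nearer to 0, or on the other side of it, on the vertical axis. Selecting genes by their call in vehicle mice favours larger changes on the horizontal axis.

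Chaperones took opposite directions. Of the 21, 8 fell in vehicle mice, while 3 rose in VB mice and none fell, and the difference passed for 8. Hspa1a rose from 1.38 ± 0.849 to 5.17 ± 1.63 CPM in VB mice (change 1.88 ± 0.35, difference -5.05 ± 0.53, adjusted p = 1.16e-05), and Bag3 changed by 0.87 ± 0.13 (difference -1.59 ± 0.19). Of the clock genes, Nfil3 changed by 0.22 ± 0.16 in VB mice (difference -1.98 ± 0.23, adjusted p = 3.21e-05), Dbp by 0.65 ± 0.56 (difference 4.15 ± 0.85, adjusted p = 0.00658) and Arntl by -0.84 ± 0.31 (difference -2.43 ± 0.46, adjusted p = 0.00284). Beside this, the clock scores of the diets overlapped in VB mice, at -0.608 to -0.0724 and -0.341 to 0.716. With the score in the model the difference passed for 1 gene in place of 964. Among other genes with the smallest p for the difference, Lipe changed by -0.093 ± 0.14 in VB mice (difference 1.89 ± 0.19, adjusted p = 1.16e-05), the Wnt receptor Fzd4 by -0.30 ± 0.16 against 1.92 ± 0.16 and Gpcpd1, a glycerophosphocholine phosphodiesterase, by -0.054 ± 0.18 against 2.07 ± 0.19. Sec22c, a vesicle trafficking gene, Ddc, the aromatic amino acid decarboxylase, Proser2 and the coactivator Cited2 had differences of 1.34 ± 0.15, -1.41 ± 0.18, -1.08 ± 0.14 and -1.26 ± 0.16. Male-biased genes fell in vehicle mice (7 of 20) and rose in VB mice (11 of 20), and the difference passed for 15.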

How the data were processed

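Total liver RNA libraries (TruSeq RNA kit, per the labels' protocols) were deposited by the authors as whole-number read counts per gene, 1 column per lane file, with no normalization. GRCm38 is the build named per the submitters' processing notes. What aligned and counted the reads, and on which strand, is not given in the sources used here. Overlapping and antisense genes, and near-identical copies (Mup, Cyp2, Cyp3, Hspa1, Acot, Saa and Orm families), therefore have uncertain values. The 2 lane columns of each mouse were summed, giving 20 mice in 4 groups of 5. A lane file whose title and treatment label disagreed was kept with its title.

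Genes were kept by edgeR's expression filter (minimum count 10, minimum total 15), leaving 12616 of 32544, of which 11761 were 0 throughout. They held 99.95% of counts. edgeR 4.0.16 in R 4.3.3 fitted robust quasi-likelihood models with TMM scaling to all 4 groups, and p-values were adjusted by Benjamini-Hochberg over all genes, with 0.05 as the threshold. The SE given with a change is the size of that change divided by the square root of its F statistic in this test. Overlap compares the CPM of the 5 and 5 mice. The scripts were tested on simulated data. Precision is set by 5 mice a group, whose spread is what the p-values measure. Shares of counts were compared by exact permutation tests. Alternatives included limma 3.58.1, DESeq2 1.42.0, other scalings and filters, single lanes, leaving out each of the 10 vehicle mice in turn, a replicate block, and the clock score as a covariate. Replicate numbers were not taken to pair mice.

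The members and gene lists were chosen with earlier results of these data known, so counts over lists are descriptions. Genes named in the text are a fixed set of anchors, up to 4 called genes per list with the smallest p, the 15 largest rises and 15 largest falls (groups without overlap, at least 1 CPM in the higher group, no pseudogene or clone names), and the 10 smallest p for the difference between vehicle and VB mice. Some of these genes are not reported here. The text names 153 genes, and the 24 outside that rule were chosen after their values were seen.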

Additional observations from a re-analysis of the deposited data

Results flagged for a closer look

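Within a group of 5 mice, a mouse was singled out where its gap to the nearest other mouse, divided by the range of the group, passed Dixon's critical value of 0.71. This held in 38 of 314 groups looked at (12.1%), where chance gives about 1 in 20, and 1 mouse gave several of them. Western diet vehicle mouse 4 lay apart for Abcb11 (93.72 CPM), Alb (26050 CPM), Apoc2 (665.6 CPM), Apom (107.8 CPM), Atf4 (33.05 CPM), Cidea (47 CPM), Cyp2a5 (1103 CPM) and Fabp4 (21.03 CPM). The same mouse lay apart for Hsp90ab1 (1115 CPM), Mgll (414.2 CPM), Npc1 (84.13 CPM), Pnldc1 (12.45 CPM) and the mitochondrially encoded share of counts (4.622%). Control diet vehicle mouse 2 lay apart for Acss2 (620.1 CPM), Apoa4 (165.5 CPM), Chrna4 (5.515 CPM), Pltp (150.6 CPM) and Scd1 (11190 CPM). Western diet vehicle mouse 2 lay apart for Cd3d (1.644 CPM), Cd3e (1.245 CPM), Plin4 (18.98 CPM), Saa1 (453.4 CPM) and Vnn1 (157.1 CPM). Control diet vehicle mouse 4 lay apart for Cd3g (0.9504 CPM), Cyp2a5 (522.2 CPM), Cyp3a11 (1036 CPM) and Idi1 (366.6 CPM). Control diet vehicle mouse 5 lay apart for Cyp7a1 (37.12 CPM), Fzd4 (8.753 CPM) and Slco1a1 (437.1 CPM). Western diet vehicle mouse 1 lay apart for Hamp (520.7 CPM), Krt19 (1.364 CPM) and Slc27a2 (2174 CPM). Western diet vehicle mouse 5 lay apart for Gpcpd1 (208.8 CPM) and the clock score (1.64). Control diet vehicle mouse 3 lay apart for Abca1 (92.9 CPM). Western diet vehicle mouse 3 lay apart for Fgf21 (2.736 CPM). Control diet vehicle mouse 1 lay apart for Mt1 (10.07 CPM).

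The diet effect differed between vehicle and VB mice for 964 genes by edgeR's test of the difference, among them 83 of the 153 genes named here. Each value below is the log2 diet effect in vehicle mice minus that in VB mice, at an adjusted p under 0.05. It was higher in vehicle mice for 43 of the 83. Acaa1a (0.529), Acads (0.357), Acot3 (4.51), Agpat9 (3.13), Bbox1 (0.415), Cd36 (1.96), Cgref1 (2.34), Ciart (3.47) and Cidec (3.93) were among them. Cpt1a (1.06), Cyp2a4 (6.46), Cyp2a5 (0.991), Cyp2b10 (2.8), Cyp2c29 (0.68), Cyp2e1 (0.788), Cyp3a11 (1.73), Dbp (4.15) and Fzd4 (2.22) were among them. Gpcpd1 (2.12), Gys2 (1.04), Hadh (0.599), Inhbe (1.81), Krt23 (2.47), Lipe (1.89), Mogat1 (2.15), Mt1 (4.12) and Per3 (2.32) were among them. Plin2 (0.54), Plin4 (2.38), Pnldc1 (2.59), Pnpla2 (1.15), Por (1.71), Ppara (0.774), Pparg (2.09), Sec22c (1.34) and Slc22a5 (1.65) were among them. Slc25a20 (0.595), Slc27a2 (0.654), Tef (1.76), Themis (2.6), Usp2 (2.72), Vnn1 (2.6) and Wee1 (2.61) were among them. It was lower in vehicle mice for 40 of the 83. Acsl3 (-1.45), Adgrf1 (-3.59), Apom (-0.729), Arntl (-2.43), Atf4 (-0.862), Bag3 (-1.59), Bhlha15 (-4.26), Cdh1 (-2.85) and Chrna4 (-4.39) were among them. Cited2 (-1.26), Cyp1a2 (-0.741), Cyp51 (-0.895), Ddc (-1.41), Ddit3 (-1.65), Dhcr7 (-1.01), Dnajb1 (-1.42), Elovl3 (-1.82) and Fam222a (-3.18) were among them. Fdps (-0.986), Fkbp4 (-0.544), Hsd3b5 (-1.48), Hspa1a (-5.05), Hspa1b (-3.15), Hspa8 (-0.772), Idi1 (-0.921), Insig1 (-1.57) and Lss (-0.661) were among them. Mup8 (-3.28), Mvd (-2.04), Mvk (-0.941), Nfil3 (-1.98), Npas2 (-3.96), Ppp1r3b (-1.03), Ppp1r3c (-1.73), Proser2 (-1.08) and Rpl3 (-0.444) were among them. Slco1a1 (-0.582), Sqle (-1.31), Tat (-1.95) and Tm7sf2 (-0.841) were among them.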

How the results depend on the processing

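With TMM, RLE and upper-quartile scaling, the Mup or mitochondrial genes left out, DESeq2, limma-voom, the fit without robust weights, no filter or a strict one, and single lanes, 1736 to 2383 genes were called in vehicle mice, and the median of all genes stayed within 0.1. Counts in VB mice (813) and of the difference (964) were 622 to 1201 and 736 to 1300. The fit to the vehicle groups alone called 1585. The replicate numbers did not pair the mice (correlations of -0.049 to 0.0897, and 1 of 5 mice closest to its own number), and with the replicate block 2312 genes were called in vehicle mice, 973 in VB mice and 1146 for the difference. Adding the clock score left 27 genes called in vehicle mice, 581 in VB mice and 1 for the difference. With a minimum fold of 1.5 the counts were 288, 102 and 124. Leaving out 1 of the 10 vehicle mice gave 1663 to 2411, and 745 to 1397 in VB mice and 665 to 1702 for the difference through the shared fit, with the highest of each without Western diet vehicle mouse 4; no VB mouse was left out. The Mup difference of -0.134 percentage points ran from -0.7 to 0.52 and turned without control diet mouse 1 (0.52) or 5 (0.0429) or Western diet mouse 1 (0.234) or 5 (0.0485). The mitochondrial difference of 0.60 ran from 0.187 to 0.758, and without Western diet mouse 5 had p = 0.0317 (exact permutation test, not adjusted over the 3 measures). The cause of these changes was not tested. Of the 153 named genes 131 kept sign and call in every one of the 23 settings, other than the clock score and the minimum fold, that tested them, and 147 were tested in all 23. None of the genes that turned sign under the clock score, listed next, was called with the score in the model. Under the clock score these turned sign: Acaa1a (-0.227), Acaa1b (-0.0496), Acot3 (-0.752), Cd3d (0.649), Cyp2a5 (-0.561), Cyp4a14 (-2.75), Dbp (-0.337), Ddc (0.807), Elovl3 (0.094), Fam222a (0.639), Fgf21 (-0.213), Hadh (-0.148), Hsd3b5 (0.156), Hsf1 (-0.171), Krt19 (2.26), Lcn2 (-0.836), Mt1 (-0.928), Npc1 (-0.221), Nr1d1 (-0.954), Pdk4 (2.49), Per1 (-0.31), Rps9 (0.0681), Saa1 (-1.36), Scd1 (-0.042), Srebf1 (-1.19), Tef (-0.118) and Wee1 (-0.531). Genes near 0 also turned when 1 vehicle mouse was left out, with ranges of -0.0203 to 0.104 for Hsf1, -1.01 to 0.195 for Cd3d, -0.0369 to 0.686 for Nr1d1, -0.0667 to 0.116 for Igf1, -0.44 to 0.0308 for Pdk4, -0.18 to 0.0452 for Hsp90ab1, -0.429 to 0.0288 for Krt7, -0.997 to 0.00861 for Cd3e, -0.144 to 0.168 for Car3 and -0.0185 to 0.164 for Dnaja1, and Hsf1 with lane 2 alone (-0.105).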

Other observations

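Some of the largest changes were of genes on none of the lists. Among the rises, Themis, a T cell signalling gene, read 0.0517, 0.21, 0.43, 0.453 and 0.316 CPM on the control diet and 3.92, 5.73, 6.18, 8.23 and 6.21 CPM on the Western diet (change 4.33 ± 0.48, adjusted p = 1.45e-06). Beside it, the T cell genes Cd3e, Cd3d and Cd3g were not called, at -0.25 ± 0.61, -0.09 ± 0.60 and 0.84 ± 0.73 (adjusted p = 0.843, 0.946 and 0.496). Smpd3, a neutral sphingomyelinase, went from between 0.369 and 1.79 CPM to between 6.47 and 14.5 CPM (change 3.44 ± 0.44), and Slc35f2, Pnldc1, Ly6d and Cgref1 changed by 3.80 ± 0.50, 3.58 ± 0.45, 3.42 ± 0.51 and 3.27 ± 0.39. Krt23, a keratin on the list of bile duct markers, went from between 0.981 and 3.16 CPM to between 14.2 and 23.8 CPM (change 3.17 ± 0.35), while the bile duct keratins Krt7 and Krt19 were not called, at -0.28 ± 0.38 and -0.97 ± 0.58 (adjusted p = 0.699 and 0.294). Of the 6 tested bile duct markers 1 rose and 1 fell, with a list median of -0.613.

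Among the falls, Adgrf1, an adhesion receptor, went from between 1.42 and 7.44 CPM to between 0 and 0.384 CPM (change -4.05 ± 0.60) and Slc13a2, a carrier of citrate and succinate, from between 2.08 and 5.79 CPM to between 0.11 and 0.535 CPM (change -3.61 ± 0.47). Fam222a, Srgap3 and Bhlha15 changed by -3.27 ± 0.64, -3.17 ± 0.44 and -3.03 ± 0.69. Chrna4, a subunit of the nicotinic acetylcholine receptor, read 1.39, 5.52, 1.13, 1.40 and 0.527 CPM on the control diet and at most 0.0595 CPM on the Western diet, with 2 of the 5 mice at 0.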
